A study of Mus musculus with 4 samples.

Results

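The Z-disc genes examined here encode 10 structural proteins of the line where neighbouring sarcomeres of a muscle fiber meet. They were chosen by name and known location, with no measured value in the rule, though earlier results of these data were known. All 10 were found once each among the 57180 genes of the table. RNA was sequenced from the tibialis anterior (TA), a mostly fast-twitch muscle of the shin, with 2 libraries from the control group and 2 from the exercise group. The methods give wild-type C57BL/6J male mice that entered the study at 3 weeks of age, with TA collected at 8 weeks. Control mice stayed sedentary, and exercise mice had 4 weeks of treadmill running (12 m/min, 45 min per day, 5 days per week) after 5 days of habituation that began at 8 m/min for 30 min daily. The sources do not say whether a library came from 1 mouse or from several. P-values therefore reflect no more than how far the libraries of a group differ, which may be technical. For limma, used below, that spread is drawn partly from the other genes tested.

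At the Z-disc the barbed ends of actin filaments from both sides overlap and are held together by alpha-actinin. Titin is anchored there as well, and the proteins bound to alpha-actinin and titin join the contractile apparatus to signalling enzymes such as calcineurin. Fast and slow fibers build this structure from partly different paralogs. In mammals ACTN3 is restricted to fast fibers whereas ACTN2 is found in slow fibers too, and among the myozenins, which tether calcineurin to alpha-actinin, MYOZ1 and MYOZ3 belong to fast fibers and MYOZ2 to slow fibers and heart.

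Expression was given as TPM, a relative abundance that divides by transcript length and brings every library to the same sum, so that levels of different genes can be set side by side but read depth is unknown. The 13288 genes that reached 1 TPM in 2 or more libraries were compared with limma on log2(TPM + 1), and a gene was called at a Benjamini-Hochberg adjusted p under 0.05. Log2 fold changes below are on that scale, which understates the change of low genes, and a change given as -fold is the ratio of the group means in TPM. For a ratio of paralogs, -fold is instead taken from the difference between the group means of the log2 ratio. All 10 Z-disc genes passed the filter. The 50 highest genes held 59.0 to 62.1% of all TPM in the control libraries and 45.8 to 50.5% in the exercise libraries, and the median log2 fold change of all genes was 0.53, which fell to 0.08 under quantile normalization and to 0.00 under median-of-ratios scaling. Changes are therefore also given relative to that median. The sex-linked genes differed between groups in libraries that the methods give as male. Xist, which silences an X chromosome in female cells, stood at 14.9 and 11.7 TPM in control and at 0 and 0.07 TPM in exercise libraries, and Eif2s3y of the Y chromosome at 0.30 and 0 TPM against 16.7 and 25.2 TPM. The Y-linked gene Ddx3y, chosen with its values known, was at 10.04 and 12.1 TPM in control and at 41.2 and 37.6 TPM in exercise libraries. This difference and the exercise cannot be told apart in any result below.

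The regions before the gene starts are shown for 3 genes, the 2 paralogs that were higher in the exercise group and Ldb3, which was lower, because their directions differed. RefSeq windows on GRCm38.p6, from 250 bases before to 50 bases after the start, were matched for 5 of the 10 genes, namely Actn2, Myoz2, Ldb3, Pdlim3 and Capzb, and Actn3, Myoz1, Myoz3, Tcap and Myot were not matched. The 5 genes had 6 windows in all, and the first listed window of each gene was used. The 3 shown lie at chr13:12340683-12340982 for Actn2, chr3:123034938-123035237 for Myoz2 and chr14:34588632-34588931 for Ldb3, each on the minus strand and written 5′ to 3′ in the direction of the gene. Capitals mark matches, on either strand, to the E-box (CANNTG), the MEF2 site, the CArG box and the MCAT element (CATTCC), which are known as binding motifs of myogenic bHLH factors, MEF2, SRF and TEAD factors.
Actn2: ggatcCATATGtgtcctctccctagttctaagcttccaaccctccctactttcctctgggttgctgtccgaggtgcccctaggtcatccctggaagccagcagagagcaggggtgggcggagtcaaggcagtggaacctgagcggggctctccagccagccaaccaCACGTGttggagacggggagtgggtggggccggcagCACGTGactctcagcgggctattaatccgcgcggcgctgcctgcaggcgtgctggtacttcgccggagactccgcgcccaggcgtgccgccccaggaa
Myoz2: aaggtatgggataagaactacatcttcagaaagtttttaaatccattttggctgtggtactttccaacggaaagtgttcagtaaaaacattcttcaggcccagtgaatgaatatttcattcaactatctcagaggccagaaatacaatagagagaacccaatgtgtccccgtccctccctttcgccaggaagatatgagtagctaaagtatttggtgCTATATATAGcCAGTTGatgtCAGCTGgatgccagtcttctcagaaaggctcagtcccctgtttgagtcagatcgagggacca
Ldb3: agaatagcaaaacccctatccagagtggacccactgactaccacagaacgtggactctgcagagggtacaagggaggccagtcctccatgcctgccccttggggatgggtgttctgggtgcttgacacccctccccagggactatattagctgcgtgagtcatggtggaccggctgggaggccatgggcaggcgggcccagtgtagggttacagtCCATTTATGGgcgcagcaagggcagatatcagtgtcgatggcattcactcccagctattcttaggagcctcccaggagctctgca

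The Myoz2 window held 1 MEF2 match, which began 33 bases before the start, and 2 E-boxes that began 22 and 12 bases before it. The Actn2 window held 3 E-boxes, of which the 2 nearer to the start share the same 6 letters, and the Ldb3 window held 1 CArG box, 35 bases before the start. No match overlapped another in these 3 windows. The windows of Pdlim3 and Capzb, which are not shown, held 2 and 3 E-boxes, and that of Pdlim3 also held 2 MCAT elements. Of all 32851 windows of this length, 72.3% held an E-box, 14.7% an MCAT element, 3.19% a MEF2 match and 1.63% a CArG box. A match describes the letters only and does not show a bound site.

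In control TA the order of levels ran from the fast alpha-actinin to the scarcest myozenin. Actn3 (3879 ± 293 TPM) and Tcap (3489 ± 306 TPM) led, and their libraries overlapped (mean ± SD, n = 2 each, here and below). Myoz1 (1623 ± 48.3 TPM), Ldb3 (815 ± 29.2 TPM), Myot (486 ± 57.7 TPM) and Pdlim3 (422 ± 101 TPM) followed, of which Myot and Pdlim3 overlapped. Actn2 (243 ± 26.1 TPM), Capzb (204 ± 19.4 TPM), Myoz2 (124 ± 18.3 TPM) and Myoz3 (51.0 ± 13.99 TPM) came last, without overlap between neighbours. In the exercise group Actn3 (2551 ± 255 TPM), Tcap (1522 ± 77.0 TPM), Myoz1 (793 ± 125 TPM) and Ldb3 (522 ± 1.36 TPM) kept the first 4 places. Actn2 (480 ± 74.1 TPM) then followed with libraries that overlapped those of Ldb3, ahead of Pdlim3 (369 ± 17.2 TPM), Myot (278 ± 15.0 TPM) and Myoz2 (249 ± 79.2 TPM), where the last 2 overlapped. Capzb (216 ± 7.08 TPM) overlapped Myoz2, and Myoz3 (14.4 ± 6.86 TPM) remained the lowest. Together the 10 genes made up 1.11 and 1.15% of all TPM in the control libraries and 0.709 and 0.690% in the exercise libraries. By mean level Actn3 ranked 36th, Tcap 41st and Myoz3 2463rd among all genes of the table.

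**Figure D1:**
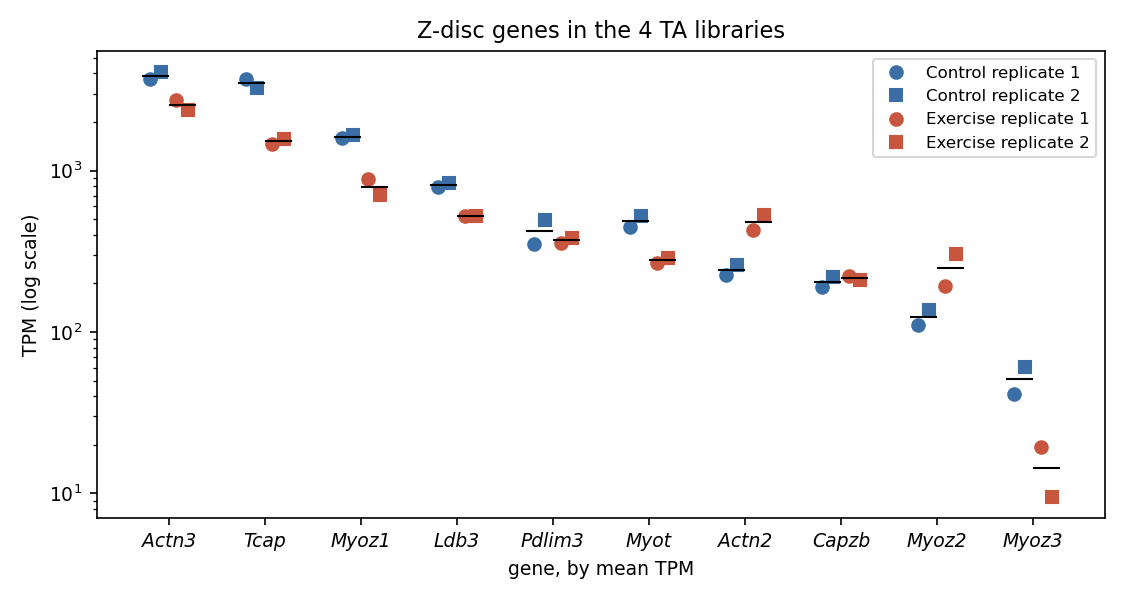
TPM of the 10 Z-disc genes (y axis, log scale) in each of the 4 TA libraries, with genes ordered by mean TPM on the x axis, points for libraries and bars for group means. The control points lie above the exercise points for Actn3, Tcap, Myoz1, Ldb3, Myot and Myoz3, below them for Actn2 and Myoz2, and overlap them for Pdlim3 and Capzb.

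Of the 10 genes, 2 rose and 6 fell in the exercise group, and 2 did not pass the test. Over all genes tested 55.3% were called higher and 6.19% lower, so the count of lower genes stood above that background and the count of higher genes below it. All of the 10 genes except Myoz3 (32.7 TPM, called lower) averaged 100 TPM or more over the 4 libraries. Of the 848 tested genes above this limit, which was set after the values were seen, 49.6% were higher and 12.7% lower. The groups did not overlap for the same 8 genes, against 72.8% of all genes without overlap and higher and 10.5% without overlap and lower. The median of the 10 genes was -0.62 on the log2 scale. With median-of-ratios scaling, under which 10.6% of all genes were higher and 16.8% lower, 8 of the 10 genes were lower and 0 higher (limma, with 1 higher at an unadjusted p under 0.05). After quantile normalization, under which 16.4% of all genes were higher and 13.2% lower, 6 were lower and 1 higher. RNA of whole muscle was measured, in which fewer fibers of a type and less RNA per fiber cannot be told apart.

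**Figure D2:**
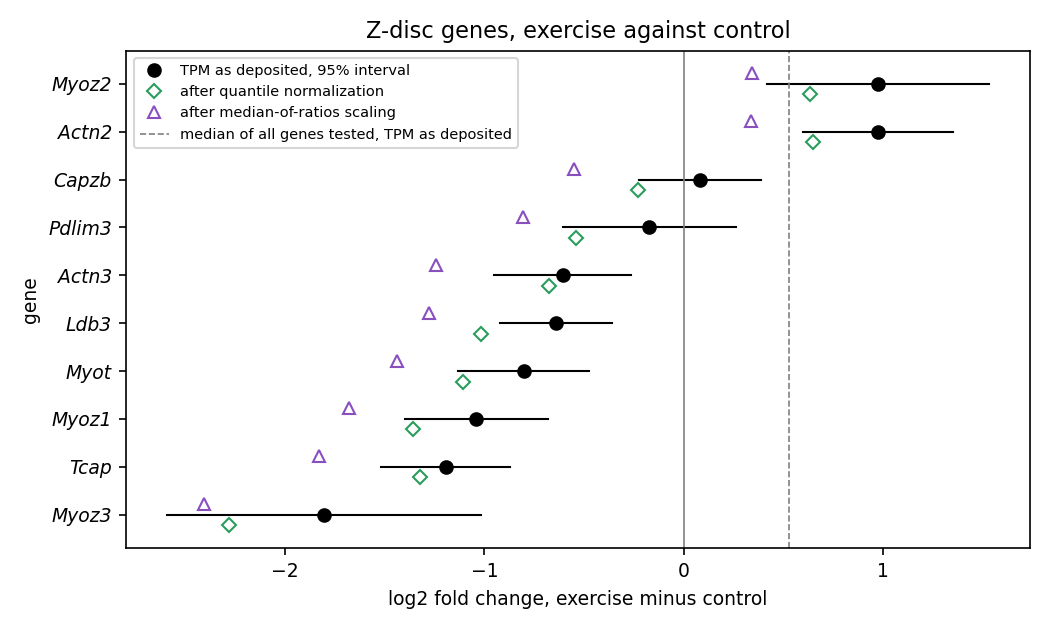
Log2 fold change of the 10 Z-disc genes (x axis, exercise minus control) from TPM as deposited, as points with 95% intervals from limma, after quantile normalization (diamonds) and after median-of-ratios scaling (triangles). Actn2 and Myoz2 are the genes right of 0 throughout, Capzb changes side, and the dashed line marks the median of all genes tested at 0.53.

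The alpha-actinins, which cross-link actin filaments, moved in opposite directions. Actn3 (ENSMUSG00000006457) stood at 3672 and 4087 TPM in control and at 2731 and 2371 TPM in exercise libraries. Both exercise libraries were below both control libraries, and the fall was of 1.52-fold (log2 fold change -0.61, standard error 0.143, 95% interval -0.95 to -0.26, adjusted p = 0.012 from limma, -1.14 relative to the median gene). Actn2 (ENSMUSG00000052374) stood at 224 and 261 TPM in control and at 427 and 532 TPM in exercise libraries. Here both exercise libraries were above both control libraries, and the rise was of 1.98-fold (log2 fold change 0.98, standard error 0.156, 95% interval 0.60 to 1.35, adjusted p = 0.0041 from limma, 0.45 relative to the median gene). The call of Actn2 was lost after median-of-ratios scaling, with 0.34 on the log2 scale (adjusted p = 0.066 from limma, 0.0019 to 0.066 over its 12 alternatives). That of Actn3 was lost without control replicate 2 (adjusted p = 0.062), without exercise replicate 2 (0.092) and with no filter (0.10), within a range of 0.0053 to 0.10 from limma over its 11 alternatives, and the direction held in each.

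The ratio of both paralogs within a library does not change when all genes of that library are scaled by 1 factor. There were 16.4 and 15.6 TPM of Actn3 for each TPM of Actn2 in the control libraries and 6.39 and 4.46 in the exercise libraries. The ratio was thus 3.0-fold lower in the exercise group (log2 difference -1.58), with a gap between the groups that exceeded the spread inside them. An exact two-sided permutation test gave p = 0.333, the smallest p that 2 libraries against 2 can give. Actn2 made up 5.76 and 6.01% of the summed TPM of both genes in control and 13.5 and 18.3% in exercise libraries, while that sum itself was 3896 and 4348 TPM against 3158 and 2903 TPM. The shift in the ratio therefore came with a lower total in both exercise libraries.

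The myozenins bind alpha-actinin, filamin C and calcineurin, and this family split as well. Myoz1 (ENSMUSG00000068697) stood at 1589 and 1657 TPM in control and at 882 and 704 TPM in exercise libraries. It fell without overlap by 2.05-fold (log2 fold change -1.04, standard error 0.149, 95% interval -1.40 to -0.68, adjusted p = 0.0034 from limma, -1.57 relative to the median gene). Myoz3 (ENSMUSG00000049173), the scarcest of the 10 genes, stood at 41.1 and 60.8 TPM in control and at 19.3 and 9.55 TPM in exercise libraries. Its fall was the largest among the 10 genes at 3.54-fold (log2 fold change -1.80, standard error 0.328, 95% interval -2.59 to -1.01, adjusted p = 0.0056 from limma). Myoz2 (ENSMUSG00000028116) stood at 111 and 136 TPM in control and at 193 and 305 TPM in exercise libraries. It rose without overlap by 2.02-fold (log2 fold change 0.98, standard error 0.231, 95% interval 0.42 to 1.53, adjusted p = 0.012 from limma), although exercise replicate 2 was far above exercise replicate 1.

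The rise of Myoz2 was the least firm of these calls. It was not called after median-of-ratios scaling (log2 fold change 0.34, adjusted p = 0.24), after quantile normalization (0.64, adjusted p = 0.086), without the 50 highest genes (adjusted p = 0.074), with no filter (adjusted p = 0.084) or without exercise replicate 2 (0.65, adjusted p = 0.074), all from limma, with 0.0064 to 0.24 over its 12 alternatives. Myoz3 lost its call with no filter alone (adjusted p = 0.056, 0.0019 to 0.056 over 12 alternatives from limma), and Myoz1 kept its call in all 12. The ratio of Myoz1 to Myoz2 was 14.4 and 12.1 in the control libraries and 4.56 and 2.31 in the exercise libraries. It was 4.07-fold lower in the exercise group (log2 difference -2.02, exact two-sided permutation p = 0.333, the smallest possible here). Of the summed TPM of the 3 myozenins, Myoz2 held 6.35 and 7.36% in control and 17.7 and 29.9% in exercise libraries, Myoz3 2.36 and 3.28% against 1.76 and 0.937%, and Myoz1 91.3 and 89.4% against 80.6 and 69.1%. Myoz1 thus remained the main myozenin of every library. The sum was 1741 and 1855 TPM in control against 1094 and 1019 TPM with exercise.

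**Figure D3:**
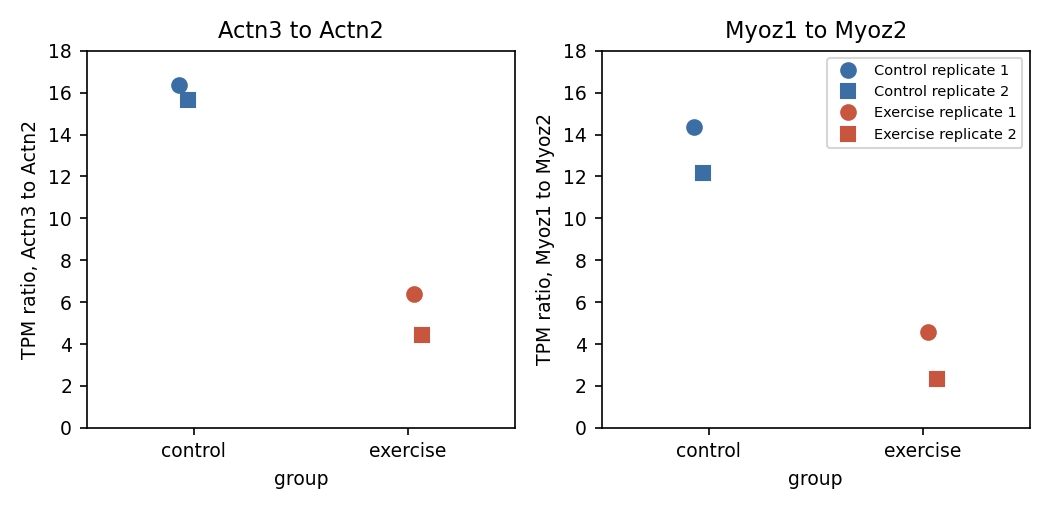
TPM ratio of Actn3 to Actn2 (left) and of Myoz1 to Myoz2 (right) on linear axes from 0, with 1 point for each of the 4 libraries by group. Control points lie at 15.6 and 16.4 for Actn3 to Actn2 and at 12.1 and 14.4 for Myoz1 to Myoz2, whereas the highest exercise points lie at 6.39 and 4.56.

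Transcripts for a protein that anchors titin and for one that binds alpha-actinin and filamin were lower. Tcap (ENSMUSG00000007877) encodes telethonin, which binds the ends of a pair of titin molecules at the Z-disc. It stood at 3705 and 3272 TPM in control and at 1467 and 1576 TPM in exercise libraries, a fall of 2.29-fold without overlap (log2 fold change -1.19, standard error 0.135, 95% interval -1.52 to -0.87, adjusted p = 0.0028 from limma, -1.72 relative to the median gene). Myot (ENSMUSG00000024471) encodes myotilin, an immunoglobulin-domain protein that binds alpha-actinin and filamin C. Its TPM were 446 and 527 in control and 267 and 288 in exercise libraries, a fall of 1.75-fold without overlap (log2 fold change -0.80, standard error 0.136, 95% interval -1.13 to -0.48, adjusted p = 0.0047 from limma, -1.33 relative to the median gene). Tcap and Myot kept their calls in every alternative in which they were tested (11 and 12).

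The PDZ and LIM domain proteins bind alpha-actinin through the PDZ domain, and the table annotates Ldb3 and Pdlim3 with the same set of PDZ, LIM and DUF4749 domains. Ldb3 (ENSMUSG00000021798), also known as ZASP or Cypher, stood at 794 and 836 TPM in control and at 523 and 521 TPM in exercise libraries. It fell by 1.56-fold without overlap (log2 fold change -0.64, standard error 0.117, 95% interval -0.92 to -0.36, adjusted p = 0.0057 from limma, -1.17 relative to the median gene), and lost its call only without exercise replicate 2 (adjusted p = 0.057 from limma, 0.0040 to 0.057 over 12 alternatives). Pdlim3 (ENSMUSG00000031636), the actinin-associated LIM protein, stood at 350 and 493 TPM in control and at 357 and 381 TPM in exercise libraries. The exercise values lay between the control values (log2 fold change -0.17, 95% interval -0.61 to 0.26, adjusted p = 0.43 from limma, -0.70 relative to the median gene). It was called lower after median-of-ratios scaling (-0.81, adjusted p = 0.020) and without the 50 highest genes (-0.57, adjusted p = 0.036), with 0.020 to 0.70 over its 12 alternatives from limma, and without control replicate 2 its sign turned to 0.075.

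Capzb (ENSMUSG00000028745) encodes the beta subunit of CapZ, which caps the barbed ends of actin filaments in muscle and in other cells. It stood at 191 and 218 TPM in control and at 221 and 211 TPM in exercise libraries. The groups overlapped, and the change was the smallest of the 10 genes in TPM as deposited (log2 fold change 0.08, 95% interval -0.22 to 0.39, adjusted p = 0.58 from limma). Its sign depended on the scaling, at -0.55 after median-of-ratios scaling (adjusted p = 0.020, 0.020 to 0.94 over 12 alternatives from limma) and -0.23 after quantile normalization. The alpha subunits that pair with it were at 189 and 276 TPM in control against 227 and 231 TPM with exercise as the sum of Capza1 and Capza2, chosen with their values known, so that the ratio of Capzb to this sum was 1.01 and 0.789 against 0.974 and 0.913. Capza1 held 17.6 and 13.1% of the sum in control and 26.9 and 27.7% in exercise libraries.

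Besides the 10 genes, 31 genes whose proteins lie in the Z-disc or bind its proteins were listed, of which 30 were tested. Of these 12 rose and 6 fell, a share of 40.0% higher and 20.0% lower beside 55.3% and 6.19% of all genes tested, and the median log2 fold change was 0.27 beside 0.53. After median-of-ratios scaling 3 were higher and 13 lower (10.6% and 16.8% of all genes), and after quantile normalization 9 and 10 (16.4% and 13.2%). Among the genes with the smallest p were the non-muscle alpha-actinins, which link actin at adhesions and stress fibers. Actn1 stood at 24.0 and 26.8 TPM in control and at 58.1 and 72.2 TPM with exercise (log2 fold change 1.32, 0.86 after quantile normalization and 0.70 with median-of-ratios scaling, called in all 3). Actn4 was at 35.8 and 38.6 TPM in control and at 80.1 and 93.3 TPM with exercise (log2 fold change 1.20, with 0.77 and 0.57 in the same order, called in all 3). Neither gene overlapped between groups. Together they made up 1.51 and 1.48% of the TPM of the 4 alpha-actinins in control and 4.19 and 5.39% in exercise libraries.

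The PDZ-LIM relatives of Ldb3 and Pdlim3 divided in the same list. Pdlim4, a regulator of actin stress fibers, stood at 7.42 and 8.75 TPM in control and at 20.6 and 27.5 TPM with exercise (log2 fold change 1.45, 0.86 after median-of-ratios scaling, called in both). Of the other PDZ-LIM genes, chosen with their values known, Pdlim1 rose (1.21, not called after median-of-ratios scaling), Pdlim5 fell (-0.55, with -1.18 after that scaling), and Pdlim2 (0.33) and Pdlim7 (-0.21) did not pass the test, although Pdlim7 was called lower after that scaling (-0.85). Xirp2, which encodes an actin-binding repeat protein of the Z-disc and the myotendinous junction, was at 394 and 430 TPM in control and at 216 and 183 TPM with exercise (log2 fold change -1.05). It fell without overlap, whereas its paralog Xirp1, chosen with its values known, rose (0.99, and 0.37 after median-of-ratios scaling, where it was not called).

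The most abundant genes of this list did not share a direction. Neb encodes nebulin, which runs along the thin filament from the Z-disc. It stood at 920 and 1371 TPM in control and at 627 and 436 TPM with exercise (adjusted p = 0.010 from limma, log2 fold change -1.10), and lay without overlap below control, though it was not called without exercise replicate 2 (-0.84) or with no filter. Cryab, the small heat shock protein that protects desmin and titin, was at 902 and 1020 TPM in control and at 1274 and 1597 TPM with exercise (log2 fold change 0.57, adjusted p = 0.020 from limma, turning to -0.065 after median-of-ratios scaling). It was also not called after quantile normalization (0.28), without the 50 highest genes (0.17), with no filter, without exercise replicate 2 (0.41) or without control replicate 1 (0.48). Flnc, which encodes filamin C and was chosen with its values known, was called higher at 0.56 and turned to -0.067 after median-of-ratios scaling. Des, which encodes the intermediate filament desmin, overlapped between groups at 754 and 939 against 777 and 873 TPM (log2 fold change -0.03, with -0.67 after median-of-ratios scaling, where it was called lower). Smpx, a small muscle protein, was at 462 and 521 against 539 and 589 TPM (log2 fold change 0.20, not called, and -0.44 after median-of-ratios scaling, called lower). Ankrd2, a titin-binding stretch protein chosen with its values known, differed more within the exercise group than between groups, at 26.9 and 22.04 TPM in control and at 7.08 and 78.9 TPM in the exercise group.

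**Figure D4:**
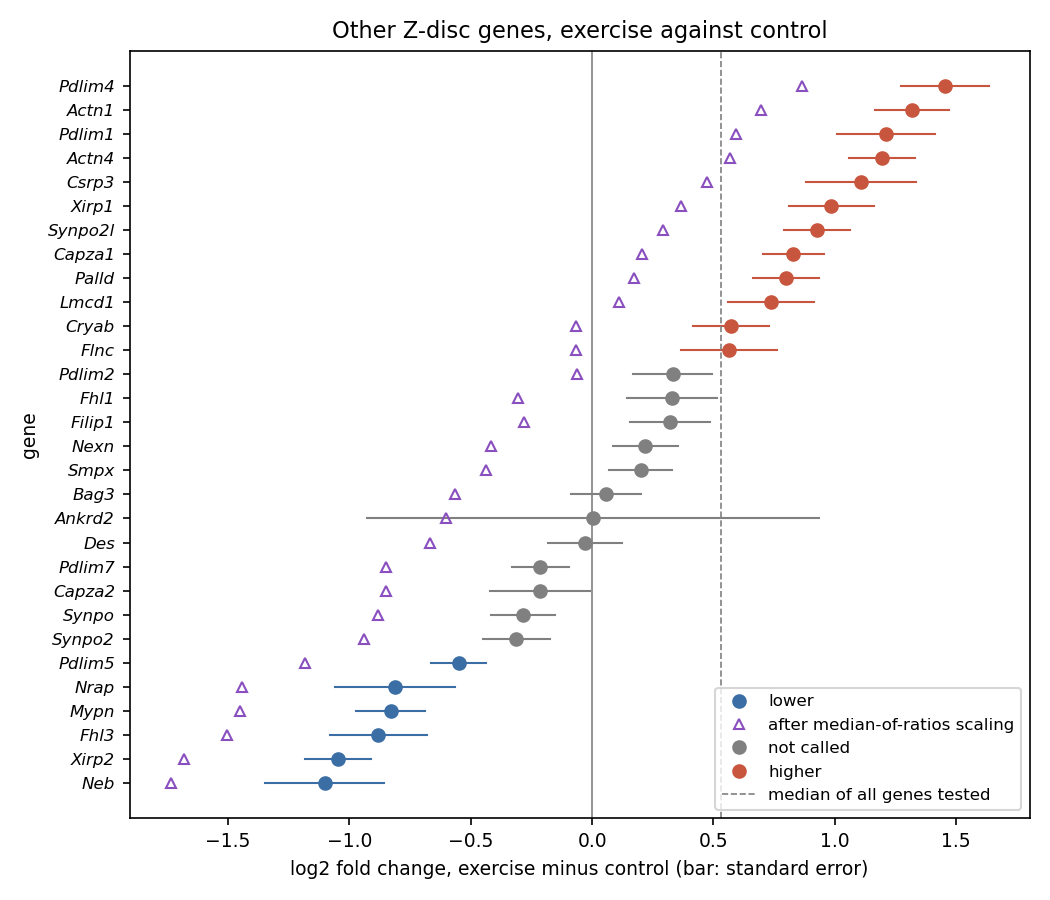
Log2 fold change (x axis, exercise minus control, bars for standard errors) of the 30 other Z-disc genes tested, coloured by call in TPM as deposited, with triangles for the values after median-of-ratios scaling. The 12 higher genes lie right of 0 and reach 1.45 in Pdlim4, the 6 lower genes reach -1.10 in Neb, and every triangle lies left of its point.

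Markers of fiber type moved in the same libraries. Of all genes tested, 55.3% were called higher and 6.19% lower in TPM as deposited. The shares were 10.6% and 16.8% with median-of-ratios scaling, and 16.4% and 13.2% after quantile normalization. Of 10 fast fiber genes 6 fell and 4 did not pass the test (3 fell after quantile normalization, 8 with median-of-ratios scaling, 1 with no filter, and 2 to 5 with a library left out, the fewest without exercise replicate 2), with a median log2 fold change of -0.48 and a summed level of 143376 and 149574 TPM in control against 118974 and 101472 TPM in exercise libraries. Tnnt3, fast troponin T, had a log2 fold change of -0.94 (not called after quantile normalization or with no filter), Myh1, the fast IIx myosin, of -1.23, and Mylpf, the fast regulatory light chain, of -0.05 (not called, turning to 0.29 after quantile normalization). Of 9 slow fiber genes 7 rose and 2 did not pass the test (5 rose under either scaling, and 5 rose and 2 fell without exercise replicate 2), with a summed level of 3554 and 4702 TPM in control against 9329 and 14877 TPM in exercise libraries. Casq2, the slow and cardiac calsequestrin, had a log2 fold change of 1.46, Tnni1, slow troponin I, of 1.43, and Tnnc1, slow troponin C, of 1.42. The 2 that did not pass, Myl2 and Myl3 of the slow light chains, were chosen with their values known and set the exercise libraries apart, at 8.74 and 1872 TPM for Myl2 (67.5 and 198 TPM in control) and 0.81 and 465 TPM for Myl3 (28.9 and 47.9 TPM in control). Exercise replicate 2, the exercise library with the higher sum of slow genes, was also the one with the higher Actn2 and Myoz2 and the lower Actn3, Myoz1 and Myoz3. Control replicate 2, the control library with the higher sum of slow genes, also had the higher Actn2 and Myoz2. Its Actn3, Myoz1 and Myoz3 were however higher too, unlike in the exercise pair. Without exercise replicate 2 the log2 ratio differences were -1.32 for Actn3 to Actn2 and -1.53 for Myoz1 to Myoz2. The part of fiber type in the changes of the Z-disc genes was not tested.

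Markers of other cell types were compared beside these values, again with 55.3% of all genes called higher and 6.19% lower in TPM as deposited. Of 8 adipocyte markers 7 were tested and 6 fell (2 with no filter and 4 without either exercise library), with a summed level of 434 and 817 TPM in control against 311 and 361 TPM in exercise libraries, and Fabp4, the fatty acid binding protein with the highest level, did not pass (log2 fold change -0.43, and -1.06 after median-of-ratios scaling, where it was called lower). Of 6 satellite cell markers 5 were tested and 5 were called higher, beside 55.3% of all genes, and 3 under either scaling, with no filter or without control replicate 1 or exercise replicate 2. Their sums were 36.9 and 45.0 against 95.9 and 105 TPM, among them Cdh15, M-cadherin, at 1.27. Of 6 smooth muscle markers 5 were tested and 3 were called higher, a share near the 55.3% of all genes, and 1 under either scaling or without exercise replicate 2. Their sums were 341 and 386 against 847 and 980 TPM, most of it from Acta2, smooth muscle actin, which kept its call under both scalings (1.46 in TPM as deposited). Of the other tested smooth muscle markers, Tagln (0.83) and Smtn (0.50) were called higher, and Myh11 (-0.38) and Lmod1 (-0.04) did not pass the test. The sums overlapped between groups for 6 endothelial markers (36.9 to 59.9 TPM, with Pecam1 at 0.32), 7 markers of fibro-adipogenic progenitors (291 to 542 TPM, with Dcn at -0.17) and 6 Schwann cell markers, of which 5 were tested (36.1 to 156 TPM, with Pmp22 at 0.27). They did not overlap for 8 macrophage markers (7 tested), at 42.7 and 56.4 TPM in control against 22.8 and 36.2 TPM with exercise. Lyz2 held much of these sums, at 28.7 and 23.5 TPM in control against 8.95 and 13.5 TPM with exercise. It was the only macrophage marker called (-1.16), and 6 did not pass the test. Cd163 (-0.62), C1qb (-0.64), C1qa (-0.47) and Csf1r (-0.32) leaned lower, and Mrc1 (0.30) and Cd68 (0.20) leaned higher. No gene of these lists was at 0 in all 4 libraries. The part of these cell types in the Z-disc results was not tested.

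For the paralog pairs, the genes of most similar profile over the 4 libraries were listed by the distance of their centred log2(TPM + 1), among 1691 tested genes that averaged 50 TPM or more. Nearest to Actn2 were Rpl13a and Rps19, genes of ribosomal proteins (distances 0.014 and 0.035), which have near-identical pseudogenes that may share their reads. Vdac1, a channel of the outer mitochondrial membrane, and Tmem38a, a cation channel of the sarcoplasmic reticulum, lay nearest to Actn3 (0.031 and 0.057). Ckm, muscle creatine kinase, and Xirp2 lay nearest to Myoz1 (0.047 and 0.074). Actr10, a subunit of dynactin, and Myl12b, a non-muscle myosin light chain with a near-identical paralog, lay nearest to Myoz2 (0.15 and 0.21). With 4 libraries, many genes share such a profile, and the distances are given as a description.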

How the data were processed

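The authors deposited 1 table of TPM for 57180 genes, rounded to 2 decimals, in which each library sums to about the same total. In the notes of the submitters on processing, the tools are fastp, HISAT2 and StringTie and the build is GRCm39, without versions or roles. The published methods instead list SeqPrep and Sickle for quality control of reads, and DEGseq for differential expression. The library kit is given differently in the labels (Illumina Stranded mRNA Prep) and in the methods (NEBNext Ultra RNA). TPM keeps no read counts, so DEGseq was not run, no counting error could be given, and precision rests on 2 libraries per group. TPM is per gene, and isoforms of a gene were not analysed here.

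A linear model of log2(TPM + 1) on group, without covariates, was run in limma 3.58.1 with a trended eBayes prior (R 4.3.3), with p-values adjusted over all 13288 genes tested. Permutation tests were exact. Alternatives were median-of-ratios scaling, quantile normalization, removal of the 50 highest genes, a pseudocount of 0.1, no filter, a minimum mean of 5 TPM, limma without the trend, the replicate number as a block, and each library left out. The fit was tested on simulated data. The members and the gene lists were chosen with earlier results of these data known. Text names all 10 members, the 4 other Z-disc genes of smallest p and the 4 of highest mean, the 2 of smallest p and the 2 of highest mean of each fiber list, the highest marker of each other list, Xist and Eif2s3y, and the 2 nearest profiles of each paralog. Exons of the 10 genes overlapped no other gene in GENCODE vM21 (GRCm38). Promoter windows are from RefSeq on GRCm38.p6. Tables and plots were made in Python 3.11.15 with scipy 1.17.1, numpy 2.4.6, matplotlib 3.10.9 and pandas 2.3.3.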

Additional observations from a re-analysis of the deposited data

How the results depend on the processing

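Myoz1 and Myot kept their calls in all 12 alternatives and Tcap in the 11 in which it was tested, and the signs of the 8 called Z-disc genes held throughout. Both ratios kept their sign, from -1.85 to -1.32 for Actn3 to Actn2 and from -2.52 to -1.53 for Myoz1 to Myoz2 with each library left out. With no filter 27036 genes were tested, of which 4513 were higher and 456 lower. Without the 50 highest genes 13238 were tested, with 3432 higher and 1508 lower. Of the 13288 genes tested in TPM as deposited, 7344 were higher and 822 lower. Median-of-ratios scaling left 1403 and 2238 of these 13288 genes, and quantile normalization 2178 and 1749. With each library left out 2622 to 7039 were higher and 410 to 814 lower, the lowest counts being those without exercise replicate 2. Without the 50 highest genes, which include Actn3 and Tcap, 8 Z-disc genes were tested and 1 was higher. Of all 10 Z-disc genes, 0 were higher with median-of-ratios scaling (limma, 1 at an unadjusted p under 0.05), 1 after quantile normalization and 1 with no filter. With each library left out 1 to 2 were higher (1 without exercise replicate 2) and 4 to 6 lower. Of the other Z-disc genes, median-of-ratios scaling left 3 higher and 13 lower, and 10 were lower after quantile normalization, 11 without the 50 highest genes and 3 with no filter, and with each library left out 6 to 13 were higher (6 without exercise replicate 2) and 3 to 8 lower (3 without exercise replicate 1). The causes were not tested.

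Signs turned in several genes. Capzb was at -0.55 under median-of-ratios scaling, -0.23 under quantile normalization and -0.32 without the 50 highest genes. With each library left out Capzb ranged from -0.013 to 0.18 and Pdlim3 from -0.42 to 0.075. Among genes called in TPM as deposited, Cryab turned to -0.065, Flnc to -0.067 and Smtn to -0.12 after median-of-ratios scaling, and Tnnc2 to 0.052 after quantile normalization. Under median-of-ratios scaling, quantile normalization and removal of the 50 highest genes, Smpx was at -0.44, -0.14 and -0.20, Pecam1 at -0.28, -0.20 and -0.061, and Pmp22 at -0.35, -0.19 and -0.12, while Mylpf was at 0.29 after quantile normalization. With each library left out Dcn ranged from -0.68 to 0.34, Des from -0.19 to 0.13, Mylpf from -0.15 to 0.054 and Pmp22 from -0.36 to 0.91.

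The replicate numbers pair nothing in the labels, and deviations of same-numbered libraries correlated at -0.049 across genes. With the replicate number as a block 7400 genes were higher and 830 lower, and the counts of the Z-disc genes were 2 higher and 6 lower, as without it. Without a library 1 group has a single library, which is assumed to vary like the other group. Depth is unknown, so it sets no limit that could be given here.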

Other observations

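The table annotates all 10 genes to the Gene Ontology term Z disc, and 116 further genes of that term were not in the list of other Z-disc genes. Of these 78 were tested, 39 rose (a share of 50%, beside 55.3% of all genes tested) and 13 fell (16.7% beside 6.19%), with a median log2 fold change of 0.46 beside 0.53. Quantile normalization left 22 higher and 22 lower (16.4% and 13.2% of all genes), and median-of-ratios scaling 14 and 29 (10.6% and 16.8% of all genes). Without exercise replicate 2 fewer genes were called, both in the set and among all genes tested. The median log2 fold change was then 0.45 for the set beside 0.48 for all genes. This set and the genes named from it were chosen after the values were seen, so the counts are a description. The set is not separate from the fiber markers, since Casq1, Casq2 and Myh7 were in both. Among the genes that rose were Vcl, vinculin of the costameres (36.1 and 40.7 TPM in control against 79.4 and 86.6 TPM with exercise), Pgm5, a phosphoglucomutase relative at adhesion sites (35.9 and 40.4 against 97.4 and 108 TPM), and Cavin4, a muscle cavin (166 and 217 against 394 and 421 TPM). Among those that fell were Synm, the intermediate filament protein synemin (94.0 and 146 against 35.4 and 20.1 TPM), Fbp2, muscle fructose bisphosphatase (95.8 and 137 against 7.52 and 13.2 TPM), and Mybpc2, fast myosin-binding protein C (1215 and 1651 against 684 and 417 TPM). The groups did not overlap for any of these 6 genes. The myomesins of the M-band, which the same annotation holds, also differed by paralog. Myom1 fell (-0.87) and Myom2 fell (-0.92), whereas Myom3, known from slow and intermediate fibers, stood at 29.1 and 48.2 TPM in control against 83.4 and 109 TPM with exercise (log2 fold change 1.33). Myom3 was not called after median-of-ratios scaling, nor were Myom2 and Myom3 without exercise replicate 2.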
